A study of Mus musculus with 6 samples.

Results

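The 10 genes described here encode the enzymes of serine synthesis (Phgdh, Psat1 and Psph), the serine hydroxymethyltransferases (Shmt1 and Shmt2), the cytosolic and mitochondrial folate enzymes (Mthfd1, Mthfd2, Mthfd1l and Aldh1l2) and the reduced folate carrier (Slc19a1). They were picked by name for their place in the pathway, by a rule that uses no measured value but was written with earlier results of these data known, and all 10 were found among the 35275 rows of the deposited table. RNA was sequenced from 3T3 cells, an immortalised line of mouse embryonic fibroblasts. The NNMT group, 3 libraries, came from 3T3 cells with an overexpression construct for nicotinamide N-methyltransferase, an enzyme that spends S-adenosylmethionine on methylating nicotinamide. The Ctrl group, 3 libraries, came from 3T3 cells with a control construct. Both groups had been kept for 48 h in DMEM that held 10 µM methionine and 10% dialyzed serum, with no other difference given in the labels. The labels name neither the promoter nor the species of the construct, and do not say how often each construct was introduced. A difference between the populations that received the constructs cannot be told apart from one of NNMT, and the p-values measure the spread between these cultures only.

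Cells make serine from the glycolytic intermediate 3-phosphoglycerate in a short chain of reactions: Phgdh oxidises it, Psat1 transfers an amino group to it and Psph removes its phosphate. Serine then gives its side-chain carbon to tetrahydrofolate, through Shmt1 in the cytosol or Shmt2 in mitochondria. Folate carries that carbon to purines, to thymidylate and, through methyltetrahydrofolate, to homocysteine, which becomes methionine and then S-adenosylmethionine. In mitochondria the carbon is oxidised by Mthfd2, released as formate by Mthfd1l or burned to carbon dioxide by Aldh1l2, and in the cytosol the trifunctional enzyme Mthfd1 takes up the formate. Mitochondrial folate enzymes are known for high expression in dividing and embryonic cells, and several genes of serine synthesis are known targets of the stress-response transcription factor ATF4.

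The libraries held 31622254 to 39982080 recovered reads, and the member with the fewest reads had 1480 in its poorest library. The NNMT column without a replicate number is called the unnumbered NNMT library. Nnmt itself stood at 15.7, 15 and 18.3 FPKM (fragments per kilobase of transcript, scaled to library size) in the unnumbered library and replicates 2 and 3 of NNMT, against 7.60, 5.25 and 6.51 FPKM in Ctrl replicates 1, 2 and 3 (limma adjusted p = 4.75e-06). Of 10 fibroblast markers, 9 reached a mean of 1 FPKM, and Fap was the exception. Of these 9, 5 rose in NNMT cells, Col1a1 and Pdgfrb among them, and 3 fell, Thy1 and Vim among them. By the same test, described below, 35.0% of all tested genes rose and 30.6% fell. Marker lists of other cell types had no member above a mean of 1.80 FPKM. Their summed levels per library in NNMT cells and Ctrl cells were 0.284 to 0.383 and 0.493 to 1.13 FPKM for 6 epithelial markers, with Epcam and Krt18 at 0, and 1.03 to 1.64 and 1.63 to 2.16 FPKM for 5 immune markers, with Cd3e among those at 0. The same sums were 0.118 to 0.139 and 0.138 to 0.239 FPKM for 4 endothelial markers, and 0.622 to 1.11 and 0.132 to 0.701 FPKM for 4 adipocyte markers, with Adipoq at 0.

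The group moved in both directions, and the carrier moved most. In NNMT cells 5 of the 10 genes were higher (Slc19a1, Aldh1l2, Psph, Mthfd2 and Phgdh), 2 were lower (Psat1 and Mthfd1), and Shmt2, Mthfd1l and Shmt1 did not pass the test. The test was limma on log2(FPKM + 1) over the 10882 genes that averaged 1 FPKM or more. Its p-values were adjusted by Benjamini-Hochberg, and 0.05 was the threshold. By the same rule 35.0% of all tested genes were higher and 30.6% lower (65.6% in either direction), so the counts of 5 and 2 among 10 are near that background. The median log2 fold change of the 10 genes was 0.10, beside 0.03 over all tested genes, and their median absolute log2 fold change was 0.23, beside 0.24. For 8 of the 10 the NNMT and Ctrl libraries did not overlap, beside 69.9% of all tested genes: NNMT lay above for 6 (37.2% of all) and below for 2 (32.7% of all). Of the 10 genes, 2 passed the test and rose by more than 1.5-fold (Slc19a1 and Aldh1l2), as did 9.83% of all tested genes. Each comparison has 3 libraries per group, so that an exact two-sided permutation test on a single gene cannot give less than p = 0.1, and it gave 0.1 for all 8 genes without overlap, 0.6 for Mthfd1l and 0.7 for Shmt1.

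**Figure D1:**
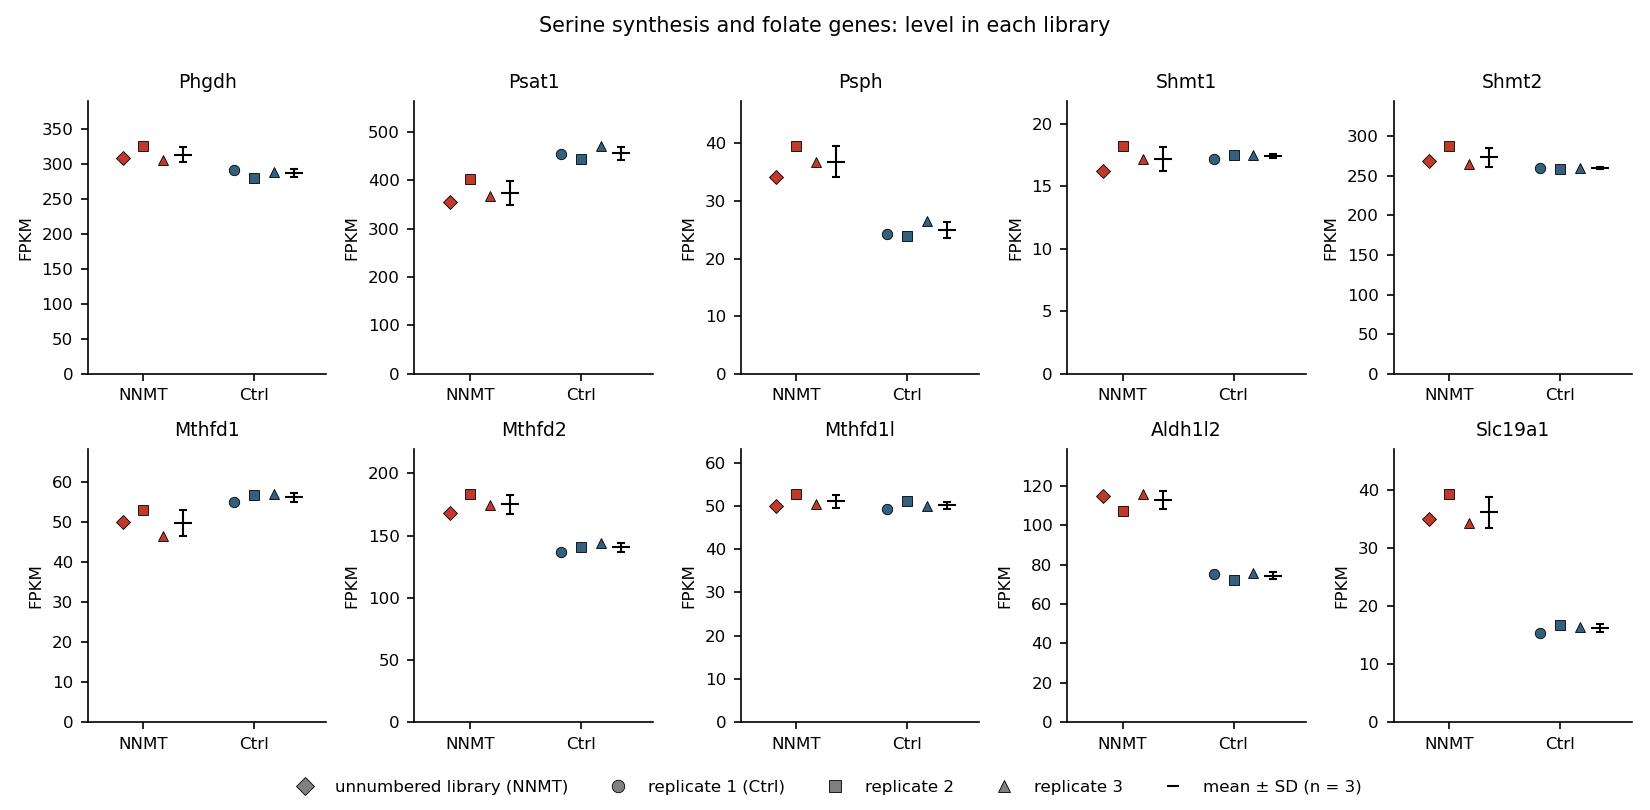
Level of each of the 10 genes in FPKM (y axes, each from 0) in the 3 NNMT libraries (left) and the 3 Ctrl libraries (right); symbols mark the library, and the bars beside them give mean and SD. The NNMT libraries lie wholly above the Ctrl libraries for 6 genes (Phgdh, Psph, Shmt2, Mthfd2, Aldh1l2 and Slc19a1), wholly below for Psat1 and Mthfd1, and overlap them for Shmt1 and Mthfd1l.

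**Figure D2:**
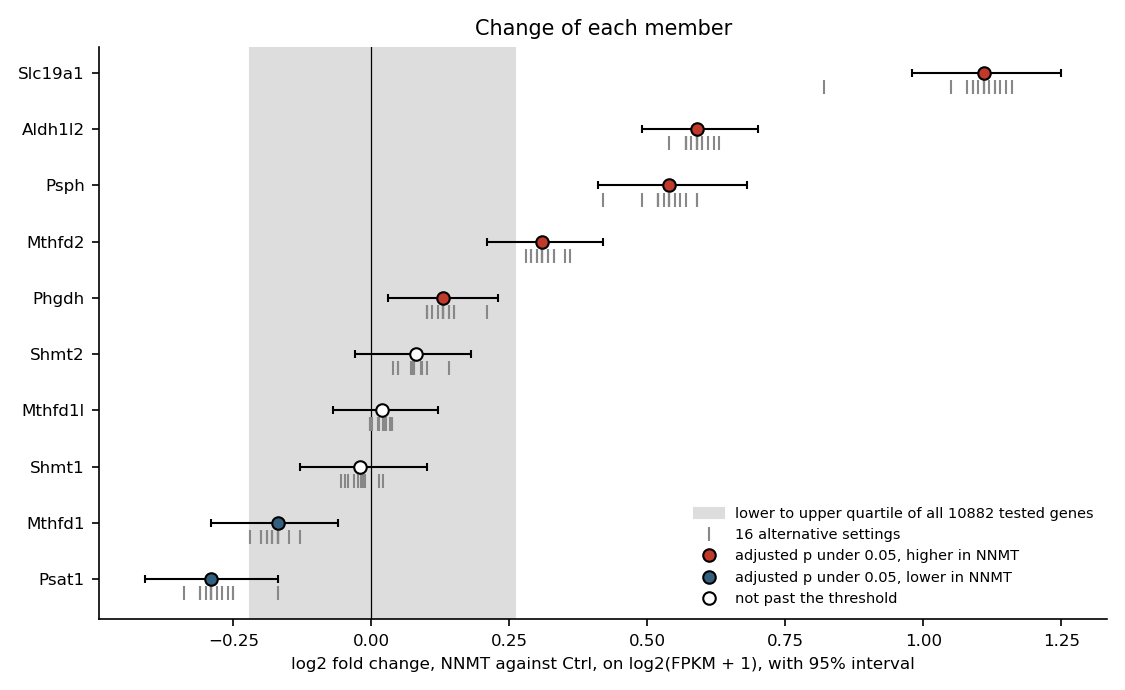
Log2 fold change of each gene, NNMT against Ctrl, with its 95% interval (x axis, on log2(FPKM + 1)); grey ticks give the value under 16 alternative settings, and the grey band runs from the lower to the upper quartile of all tested genes (-0.22 to 0.26). Slc19a1, Aldh1l2, Psph and Mthfd2 lie right of the band, Psat1 lies left of it, and the other 5 lie within it.

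In NNMT cells the first gene of serine synthesis was slightly higher, the second was lower and the third was higher. Phgdh (ENSMUSG00000053398, chromosome 3, 98313170 to 98339990 in GRCm38, minus strand), the dehydrogenase that opens the route, had 309, 325 and 305 FPKM in the unnumbered NNMT library and NNMT replicates 2 and 3, against 291, 280 and 288 FPKM in Ctrl replicates 1, 2 and 3. Every NNMT library was above every Ctrl library, with NNMT replicate 2 the highest. The means were 313 ± 10.7 and 286 ± 5.78 FPKM (SD, n = 3 each), a 1.09-fold difference with a log2 fold change of 0.13 (SE 0.0449, limma adjusted p = 0.0279). This call did not hold with median of ratios scaling (limma adjusted p = 0.0590), with limma-voom on recovered reads (0.0665), without Ctrl replicate 1, 2 or 3 (0.0534, 0.114 and 0.0718) or without NNMT replicate 2 (0.0735). In GENCODE M21, 9 other genes, processed pseudogenes where their type is given in the table, hold at least 200 bases that match the Phgdh transcript at 95% or more. The 5 of them in the table averaged at most 0.0115 FPKM in either group, and the sources used here do not say how reads that match several places were counted.

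Psat1 (ENSMUSG00000024640, chromosome 19, 15904678 to 15947337, minus strand), the phosphoserine aminotransferase and the most abundant of the 10 transcripts, was lower in NNMT cells. It stood at 354.5, 401.6 and 366.7 FPKM in the unnumbered NNMT library and NNMT replicates 2 and 3, against 453.5, 444.1 and 470.4 FPKM in Ctrl replicates 1, 2 and 3. The groups did not overlap, and NNMT replicate 2 came closest to the Ctrl libraries. The means were 374 ± 24.5 and 456 ± 13.3 FPKM, with a log2 fold change of -0.29 (SE 0.0542, limma adjusted p = 0.000943), and the call held under all 16 alternatives.

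Psph (ENSMUSG00000029446, chromosome 5, 129765558 to 129787449, minus strand), the phosphatase that ends the route, rose in NNMT cells to 34.2, 39.5 and 36.7 FPKM in the unnumbered library and replicates 2 and 3, against 24.2, 24.0 and 26.5 FPKM in Ctrl replicates 1, 2 and 3. The lowest NNMT library was well above the highest Ctrl library. The means, 36.8 ± 2.67 and 24.9 ± 1.37 FPKM, differed 1.48-fold (log2 fold change 0.54, SE 0.0619, limma adjusted p = 2.94e-05). Psph shares 10.4% of its annotated exon bases with Cct6a, a chaperonin subunit gene on the opposite strand that stood at 276 ± 17.3 FPKM in NNMT cells and 262 ± 8.90 FPKM in Ctrl cells (limma adjusted p = 0.245). The sources used here do not say whether counting used strand, so reads of both genes in the shared bases cannot be told apart.

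Transcripts of the mitochondrial and the cytosolic serine hydroxymethyltransferase stayed close to their Ctrl levels. Shmt2 (ENSMUSG00000025403, chromosome 10, 127517123 to 127522444, minus strand), the mitochondrial enzyme, had 268.4, 287.5 and 265.2 FPKM in the unnumbered NNMT library and NNMT replicates 2 and 3, against 260.4, 258.1 and 260.1 FPKM in Ctrl replicates 1, 2 and 3. The groups did not overlap, but the gap was small beside the spread of the NNMT libraries. Its log2 fold change was 0.08 with a 95% interval from -0.03 to 0.18 (limma adjusted p = 0.173), and under quantile normalization it was 0.14 (limma adjusted p = 0.0124). Shmt1 (ENSMUSG00000020534, chromosome 11, 60788104 to 60811718, minus strand), the cytosolic enzyme, had 16.2, 18.2 and 17.2 FPKM in the same NNMT libraries, against 17.2, 17.5 and 17.5 FPKM in the Ctrl libraries. The NNMT values enclosed the Ctrl values. Its log2 fold change came to -0.02, with an interval from -0.13 to 0.10 (limma adjusted p = 0.781).

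Among the transcripts of the mitochondrial folate enzymes, Mthfd2 and Aldh1l2 rose and Mthfd1l did not pass the test. Mthfd2 (ENSMUSG00000005667, chromosome 6, 83305691 to 83325908, minus strand), the dehydrogenase and cyclohydrolase that oxidises methylenetetrahydrofolate, had 167.8, 183.2 and 174.5 FPKM in the unnumbered NNMT library and NNMT replicates 2 and 3, against 137.0, 140.6 and 144.2 FPKM in Ctrl replicates 1, 2 and 3. All NNMT libraries exceeded all Ctrl libraries. The means were 175 ± 7.75 and 141 ± 3.63 FPKM, a 1.25-fold difference (log2 fold change 0.31, SE 0.0484, limma adjusted p = 0.000233).

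Aldh1l2 (ENSMUSG00000020256, chromosome 10, 83487450 to 83534140, minus strand), which oxidises formyltetrahydrofolate to carbon dioxide while making NADPH, rose to 115, 107 and 116 FPKM in the unnumbered NNMT library and NNMT replicates 2 and 3, against 75.2, 72.1 and 75.6 FPKM in Ctrl replicates 1, 2 and 3. It was the one member in which NNMT replicate 2 was not the highest NNMT library. The means of 113 ± 4.58 and 74.3 ± 1.88 FPKM differed 1.52-fold (log2 fold change 0.59, SE 0.0476, limma adjusted p = 2.51e-06), and 773 of the tested genes had a larger log2 fold change. Aldh1l2 shares 14.1% of its exon bases with D10Wsu102e on the opposite strand, which had 23.5 ± 0.689 FPKM in NNMT cells and 25.3 ± 1.27 FPKM in Ctrl cells (limma adjusted p = 0.105).

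Mthfd1l (ENSMUSG00000040675, chromosome 10, 3973118 to 4167081, plus strand), the ligase that releases formate in mitochondria, had 50.1, 52.7 and 50.4 FPKM in the unnumbered NNMT library and NNMT replicates 2 and 3, against 49.4, 51.1 and 50.1 FPKM in Ctrl replicates 1, 2 and 3. The groups overlapped, and the log2 fold change was 0.02 with an interval from -0.07 to 0.12 (limma adjusted p = 0.644). Its cytosolic counterpart Mthfd1 (ENSMUSG00000021048, chromosome 12, 76255298 to 76319803, plus strand) was lower in NNMT cells, at 49.9, 52.9 and 46.5 FPKM in the same libraries, against 54.9, 56.8 and 56.9 FPKM in the Ctrl libraries. The groups did not overlap, with NNMT replicate 2 nearest to the Ctrl libraries. The means were 49.8 ± 3.20 and 56.2 ± 1.09 FPKM (log2 fold change -0.17, SE 0.0534, limma adjusted p = 0.0151). The call was lost without Ctrl replicate 2 (limma adjusted p = 0.0520), without Ctrl replicate 3 (0.0536) or without NNMT replicate 3 (0.0644), which leaves 1 of the 10 genes lower.

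The largest change was that of the carrier. Slc19a1 (ENSMUSG00000001436, chromosome 10, 77032241 to 77061002, plus strand), which brings reduced folates into the cell in exchange for organic phosphates, had 35.0, 39.2 and 34.2 FPKM in the unnumbered NNMT library and NNMT replicates 2 and 3, against 15.4, 16.7 and 16.3 FPKM in Ctrl replicates 1, 2 and 3. No Ctrl library came near the NNMT range. The means of 36.1 ± 2.72 and 16.1 ± 0.687 FPKM differed 2.24-fold, resting on 11534 reads in the NNMT libraries and 4845 in the Ctrl libraries. The log2 fold change was 1.11 (SE 0.0602, 95% interval 0.98 to 1.25, limma adjusted p = 1.72e-07), and 203 tested genes had a larger one. The annotated span of Slc19a1 overlaps that of Col18a1 on the opposite strand without sharing an exon base. Col18a1 was low, at 1.49 ± 0.360 FPKM in NNMT cells and 0.836 ± 0.0791 FPKM in Ctrl cells. It was also called higher in NNMT cells (log2 fold change 0.43, limma adjusted p = 0.00499).

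Where transcription starts in these cells was not measured, so the annotated start regions of 4 of the genes that changed are shown. They are RefSeq promoter windows on GRCm38.p6, each 300 bases on the strand of the gene, with the 50 bases from the start site on in capitals. They are Slc19a1, with 2 starts in RefSeq, the first of them not matched by a GENCODE M21 transcript (chr10:77032489-77032788 and chr10:77032962-77033261, plus strand), Psph (chr5:129787204-129787503, minus strand), Mthfd2 (chr6:83317555-83317854, minus strand) and Psat1, by the downstream of its 2 annotated starts (chr19:15924573-15924872, minus strand).
Slc19a1, first start: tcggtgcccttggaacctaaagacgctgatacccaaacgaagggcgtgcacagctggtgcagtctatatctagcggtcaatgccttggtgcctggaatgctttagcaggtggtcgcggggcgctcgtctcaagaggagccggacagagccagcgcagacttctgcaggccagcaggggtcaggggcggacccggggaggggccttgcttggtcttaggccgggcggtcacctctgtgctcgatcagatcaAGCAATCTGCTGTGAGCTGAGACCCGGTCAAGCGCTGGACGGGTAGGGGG
Slc19a1, second start: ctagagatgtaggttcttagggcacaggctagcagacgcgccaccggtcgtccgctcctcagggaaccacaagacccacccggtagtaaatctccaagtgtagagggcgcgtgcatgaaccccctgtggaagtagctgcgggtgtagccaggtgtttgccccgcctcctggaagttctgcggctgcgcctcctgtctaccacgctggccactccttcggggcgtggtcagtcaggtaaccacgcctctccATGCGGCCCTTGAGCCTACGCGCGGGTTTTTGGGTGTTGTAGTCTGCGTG
Psph: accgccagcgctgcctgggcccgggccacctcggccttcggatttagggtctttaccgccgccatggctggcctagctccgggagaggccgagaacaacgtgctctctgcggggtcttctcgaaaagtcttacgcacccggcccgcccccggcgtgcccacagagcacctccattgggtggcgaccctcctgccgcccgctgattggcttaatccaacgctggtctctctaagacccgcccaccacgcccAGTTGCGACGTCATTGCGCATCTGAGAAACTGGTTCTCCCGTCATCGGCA
Mthfd2: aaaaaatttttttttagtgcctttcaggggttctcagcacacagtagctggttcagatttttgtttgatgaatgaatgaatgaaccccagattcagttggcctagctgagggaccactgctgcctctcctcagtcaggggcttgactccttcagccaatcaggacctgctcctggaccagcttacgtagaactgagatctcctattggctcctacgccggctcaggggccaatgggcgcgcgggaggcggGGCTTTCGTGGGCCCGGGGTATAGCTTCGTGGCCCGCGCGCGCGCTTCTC
Psat1, downstream start: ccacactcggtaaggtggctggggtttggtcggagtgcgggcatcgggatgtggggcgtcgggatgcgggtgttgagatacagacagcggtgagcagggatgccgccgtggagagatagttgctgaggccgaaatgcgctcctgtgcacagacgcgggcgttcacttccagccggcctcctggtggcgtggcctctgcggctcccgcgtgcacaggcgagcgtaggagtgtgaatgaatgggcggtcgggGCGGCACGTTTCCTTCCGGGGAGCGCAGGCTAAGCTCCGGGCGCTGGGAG

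In all, 9 of the 10 genes had such a window, 11 windows together, and Aldh1l2 had none in the table used. Both strands were searched for TGATGNAA, the core of the amino acid response element that ATF4 and C/EBP proteins bind, and for the E-box CACGTG. An E-box can run into the other motif, with its last letters as the first of the other, and each was counted on its own. Of the 11 windows, 0 held the first and 0 the second, while 3.97% and 7.15% of all 32851 windows did. That says only that these letters are not within these 300-base windows. The member windows held 8 to 30 CpG dinucleotides, at a median of 7 over all windows, and the Psat1 window printed above held the 30.

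Transcripts for enzymes of the same route stood in other proportions to each other in NNMT cells than in Ctrl cells. These ratios within a library do not depend on scaling between libraries, and protein levels were not measured. The ratio of Psat1 to Phgdh was 1.15, 1.24 and 1.2 in the unnumbered NNMT library and NNMT replicates 2 and 3, against 1.56, 1.59 and 1.63 in Ctrl replicates 1, 2 and 3. The ratio of Psph to Phgdh was 0.111, 0.122 and 0.120 in the NNMT libraries, against 0.0833, 0.0859 and 0.0919 in the Ctrl libraries. In neither ratio did the groups overlap.

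Mthfd2, Aldh1l2 and Mthfd1l were higher relative to cytosolic Mthfd1 in NNMT cells, in 3 ratios that share that denominator. Mthfd1l itself did not pass the test (log2 fold change 0.02), so its ratio mostly restates the lower Mthfd1 (-0.17). The mitochondrial Mthfd2l, at -0.18, was not put in a ratio. The ratio of Mthfd2 to Mthfd1 averaged 3.53 ± 0.201 in NNMT cells and 2.5 ± 0.0311 in Ctrl cells, a log2 difference of 0.49. That of Aldh1l2 to Mthfd1 averaged 2.27 ± 0.230 in NNMT cells and 1.32 ± 0.0492 in Ctrl cells, a log2 difference of 0.78. That of Mthfd1l to Mthfd1 averaged 1.03 ± 0.0480 in NNMT cells and 0.893 ± 0.0108 in Ctrl cells, a log2 difference of 0.20. The mitochondrial Shmt2 exceeded the cytosolic Shmt1 by a ratio of 15.9 ± 0.560 in NNMT cells and 14.9 ± 0.188 in Ctrl cells, the smallest difference of the 6 (0.09 on the log2 scale). For all 6 ratios the groups did not overlap and the exact two-sided permutation test gave p = 0.1, also after adjustment over the 6, the smallest value it can give. The share of other gene pairs without overlap was not computed. Of single tested genes 69.9% did not overlap, so the count of 6 has no background to be read against.

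**Figure D3:**
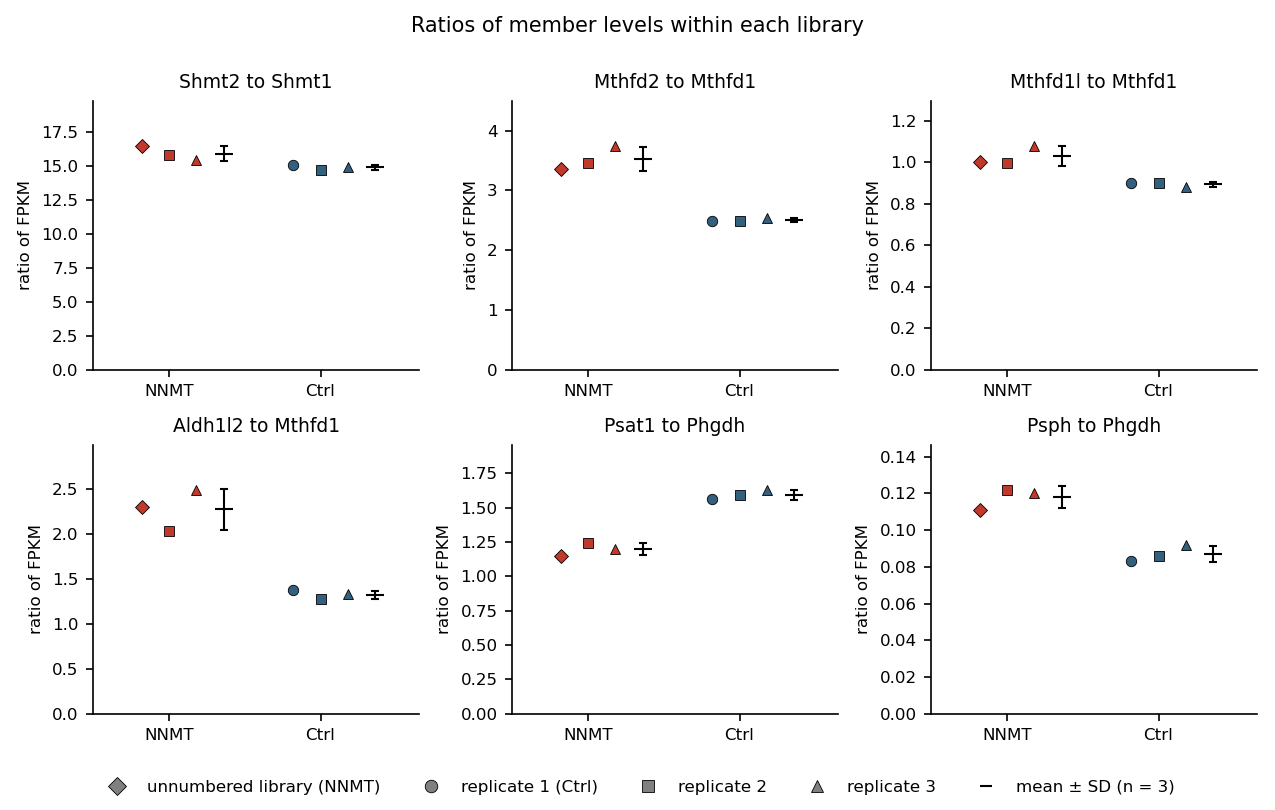
Ratio of the FPKM of 2 genes within each library (y axes, each from 0) in the 3 NNMT libraries (left) and the 3 Ctrl libraries (right), with mean and SD beside the points. The Psat1 to Phgdh ratio lies lower in every NNMT library (at most 1.24) than in any Ctrl library (at least 1.56), and the other 5 ratios lie higher.

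The order of the levels was almost the same in both groups. From the highest FPKM down it ran Psat1, Phgdh, Shmt2, Mthfd2 and Aldh1l2, and none of these neighbours overlapped within either group. In NNMT cells Mthfd1l (50.1 to 52.7 FPKM) and Mthfd1 (46.5 to 52.9 FPKM) followed and overlapped each other, as did Psph (34.2 to 39.5 FPKM) and Slc19a1 (34.2 to 39.2 FPKM) after them, with Shmt1 last. In Ctrl cells Mthfd1 came before Mthfd1l and Slc19a1 was last, below Shmt1, with no overlap between neighbours. The 10 levels summed to 1399.7 to 1507 FPKM in NNMT libraries and 1361 to 1406 FPKM in Ctrl libraries, ranges that overlap. NNMT replicate 2 was the highest NNMT library for 9 of the 10 genes, where it was the highest for 37.4% of all tested genes.

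Beyond the 10 genes, lists of related genes were read beside the 35.0% of all tested genes that rose and the 30.6% that fell. Of 6 genes of folate transport and retention, 4 were tested and 1 rose. This was Slc25a32, the mitochondrial folate carrier, at 12.4 ± 0.932 FPKM in NNMT cells and 9.97 ± 0.498 FPKM in Ctrl cells (limma adjusted p = 0.00259). Slc46a1, the proton-coupled folate transporter, had 2.85 and 3.47 FPKM, and Fpgs, which adds the glutamates that retain folate, had 22.1 and 23.3 FPKM, in NNMT and Ctrl cells. The folate receptor genes Folr1 and Folr2, like Gldc and Cbs below, were named after their values were seen and stayed under the filter of 1 FPKM.

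Of 9 tested folate-using enzymes, 3 rose and 2 fell, close to those shares. Gart, a trifunctional enzyme of purine synthesis, rose 1.72-fold to 71.5 ± 1.2 FPKM in NNMT cells, against 41.6 ± 0.770 FPKM in Ctrl cells. Mtrr, which reactivates methionine synthase, rose 1.56-fold to 9.96 ± 0.297 FPKM in NNMT cells, against 6.39 ± 0.143 FPKM in Ctrl cells. Mthfd2l, a mitochondrial relative of Mthfd2, fell to 5.33 ± 0.168 FPKM in NNMT cells, against 6.16 ± 0.0891 FPKM in Ctrl cells. The limma adjusted p was 2.01e-07 for Gart, 5.51e-06 for Mtrr and 0.0132 for Mthfd2l. Of 5 tested genes of glycine and sarcosine breakdown, 2 rose: Sardh, sarcosine dehydrogenase, 1.49-fold to 11.1 ± 1.97 FPKM, and Amt, of the glycine cleavage system, to 1.47 ± 0.304 FPKM in NNMT cells, against 0.898 ± 0.0779 FPKM in Ctrl cells. Gldc, the decarboxylase of that system, was below the filter at 0.0630 and 0.0254 FPKM in NNMT and Ctrl cells.

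Of 13 tested genes that move or use serine, 8 rose and 1 fell (median 0.23 on the log2 scale), beside 35.0% higher and 30.6% lower (median 0.03) over all tested genes. Slc1a4, a neutral amino acid exchanger that carries serine, rose 1.45-fold to 51.8 ± 1.90 FPKM in NNMT cells. Sfxn3, a mitochondrial serine transporter, rose 1.28-fold to 47.1 ± 1.71 FPKM, and its relative Sfxn1, named after its values were seen, rose 1.2-fold to 29.1 ± 2.35 FPKM. Sdsl, a serine dehydratase relative, rose 2.41-fold to 1.90 ± 0.502 FPKM, and the phosphatidylserine synthase Ptdss2 and the transporter Slc38a1 rose 1.3-fold and 1.21-fold. Sptlc2, a subunit of the enzyme that joins serine to palmitate, fell to 9.61 ± 0.292 FPKM in NNMT cells, against 13.7 ± 0.156 FPKM in Ctrl cells (limma adjusted p = 1.25e-05). Cbs, which condenses serine with homocysteine, was below the filter, at 0.00711 FPKM in NNMT cells and listed at 0 in all Ctrl libraries.

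**Figure D4:**
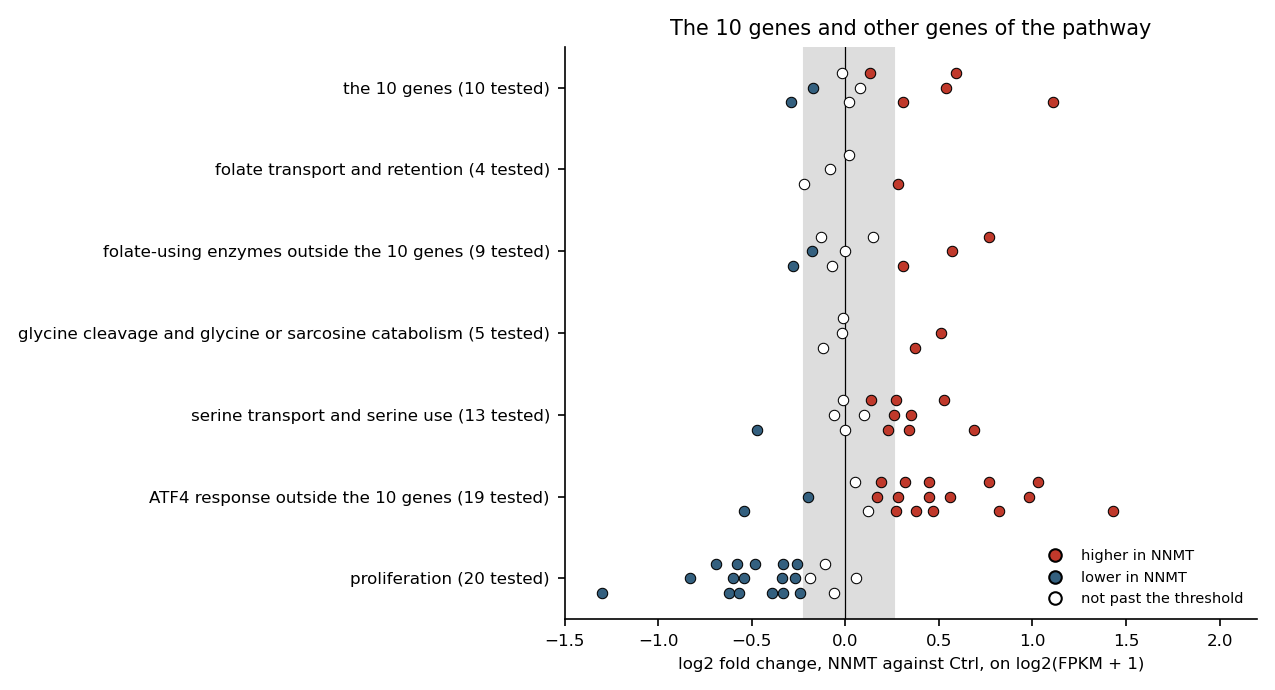
Log2 fold change, NNMT against Ctrl, of every tested gene in each list (x axis, on log2(FPKM + 1); 1 point per gene; red higher, blue lower, white not past the threshold), with a grey band from the lower to the upper quartile of all tested genes (-0.22 to 0.26). The proliferation points lie mostly left of the band and the ATF4 points mostly right of it, and the 10 genes lie on both sides.

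A pair of gene groups known to move with serine and folate genes differed between the cultures in opposite directions. Of 19 tested genes of the ATF4 response outside the 10, 15 rose and 2 fell (median 0.38 on the log2 scale), where 35.0% of all tested genes rose and 30.6% fell. Cth, the enzyme that releases cysteine from cystathionine, rose 2.80-fold, and the lipoprotein receptor Vldlr 2.71-fold to 4.23 ± 0.117 FPKM in NNMT cells. Slc3a2, the heavy chain of amino acid exchangers, rose 1.71-fold. The stress pseudokinase Trib3 rose 1.78-fold to 107 ± 6.23 FPKM in NNMT cells and the cystine carrier Slc7a11 rose 2.40-fold to 5.62 ± 0.5 FPKM. Atf4 itself, named after its values were seen, had 416 ± 24.1 FPKM in NNMT cells and 363 ± 2.30 FPKM in Ctrl cells (limma adjusted p = 0.00634). Atf5, a related factor, fell to 143.1 ± 5.04 FPKM in NNMT cells, against 208.5 ± 11.1 FPKM in Ctrl cells, and Sesn2, also named after its values were seen, fell to 19.8 ± 0.767 FPKM, against 22.8 ± 0.580 FPKM. Of 20 proliferation genes, 16 fell and the other 4 did not pass (median -0.37), beside the same 30.6%. Mki67, a marker of dividing cells, stood at 17.5 ± 1.98 FPKM in NNMT cells and 31.8 ± 3.12 FPKM in Ctrl cells, and Pcna, the replication clamp, at 108 ± 2.97 and 152 ± 5.82 FPKM. Cdc20, an activator of mitotic exit, stood at 45.3 ± 7.35 FPKM in NNMT cells and 112 ± 2.62 FPKM in Ctrl cells, and Rrm2, Mcm6 and Aurkb also fell. The summed level of the 20 genes was 901 to 1038 FPKM per NNMT library and 1249 to 1288 FPKM per Ctrl library. The part of either group in the changes of the 10 genes was not tested, and in bulk RNA fewer dividing cells and less RNA per dividing cell cannot be told apart.

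Genes close to the 10 on the chromosome moved in both directions, some of them by as much as the 10 or more. Over all tested genes 35.0% rose and 30.6% fell. Around Slc19a1, 21 other tested genes lay within 1 Mb, of which 6 rose and 10 fell. Their log2 fold changes ran from -1.18 to 0.97 around a median of 0.00. Around Aldh1l2 the 13 tested neighbours had a median of 0.00 and reached 0.35 at most. Of the 22 neighbours of Psph 11 rose and 3 fell, with a median of 0.16 and a highest value of 0.70, above the 0.54 of Psph. Of the 27 of Mthfd2 11 rose and 4 fell, with a median of 0.12 and a highest value of 0.68, above the 0.31 of Mthfd2. Psat1 had 4 tested neighbours, from -0.14 to 0.12, none of which passed. For Phgdh, 5 of 8 neighbours rose, and the median of the 8 was 0.29, above the 0.13 of Phgdh. Of the 48 of Shmt2 10 rose and 22 fell, and of the 30 of Shmt1 16 rose and 3 fell. Mthfd1 had 12, of which 5 rose and 4 fell, and Mthfd1l had 5, of which 2 rose. Slc19a1, Aldh1l2, Shmt2 and Mthfd1l all lie on chromosome 10, whose 531 tested genes had a median of -0.04. The 373 tested genes of chromosome 12 had a median of -0.17, the same as the -0.17 of Mthfd1. On chromosome 3 the 525 tested genes had a median of 0.13, the same as the 0.13 of Phgdh. Chromosomes 19, 5, 6 and 11, which hold Psat1, Psph, Mthfd2 and Shmt1, had medians of 0.15, 0.16, 0.07 and 0.08.

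**Figure D5:**
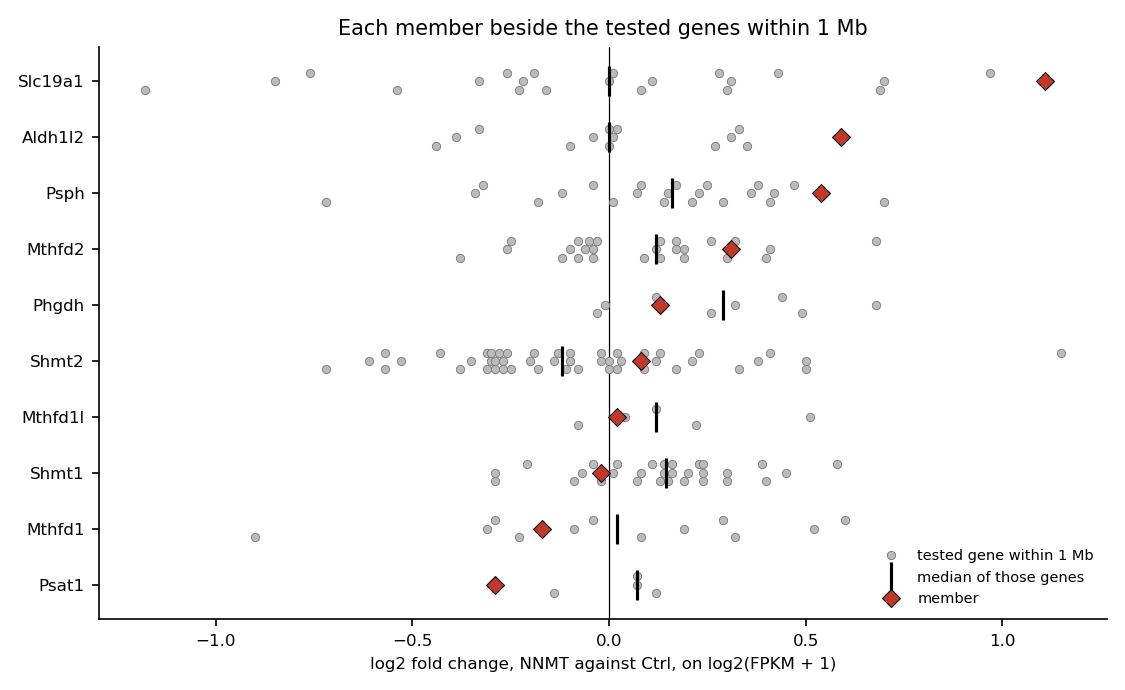
Log2 fold change, NNMT against Ctrl, of each of the 10 genes (diamonds) and of the tested genes within 1 Mb of it (grey points, bar at their median; x axis, on log2(FPKM + 1)). Slc19a1, Aldh1l2 and Psat1 lie outside the range of their neighbours. Phgdh, Psat1, Shmt1, Mthfd1 and Mthfd1l lie below the median of theirs.

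Among the 3 genes whose profile over the 6 libraries was nearest to that of Slc19a1 were Crispld2 (chromosome 8) and Bag2 (chromosome 1). Their root-mean-square distances were 0.0453 and 0.0510 on the log2(FPKM + 1) scale, after each gene was centred on its own mean. Among the other members, Aldh1l2 was the nearest to Slc19a1, at 0.281. For Aldh1l2 the nearest tested genes were Tef, Bbs2 and Mettl21a (0.0149 to 0.0242), and its nearest member was Psph at 0.0984. Shmt2 and Phgdh were each other's nearest member at 0.0303, and Psat1 and Mthfd1, the 2 that fell, at 0.0754. For Psph the nearest tested genes were Gtpbp8, Atp5j and Enpp4, for Mthfd2 Pafah1b2, Rev1 and Gfm1, for Psat1 Gphn, Otud1 and Crls1, and for Mthfd1 Sephs2, Nt5c3b and Arf1. With 6 libraries in 2 groups, this measure mostly compares the size of the group difference.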

How the data were processed

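RNA was sequenced from 6 libraries, 3 NNMT and 3 Ctrl. Per the submitters' processing notes the tools were CASAVA and STAR 2.5 and the build mm10; counter, annotation, strandedness and filters are unstated in these sources. The authors deposited 1 value per gene and library without a unit, read here as FPKM. Within a gene the values are whole multiples of a step that, times the longest GENCODE M21 transcript, points to a single total per library for 71.1% of the 20528 detected genes. Whole reads (tolerance 0.01) could be recovered for all of these. Of 35275 identifiers, 34490 were paired with GENCODE M21 genes on GRCm38. The unnumbered NNMT column was used as the remaining NNMT library. Libraries of a group differed beyond counting error (chi-square 6.35 to 23.9 per degree of freedom).

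Genes averaging 1 FPKM or more were tested on log2(FPKM + 1), which understates changes of low genes, with limma 3.58.1 in R 4.3.3 (trend, robust moderation, two-sided, Benjamini-Hochberg over all 10882). The counts per list use all genes tested. Exact permutation tests used scipy 1.17.1. Near copies were sought with blastn 2.17.0. The script was checked on simulated data.

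The 10 genes and all lists were chosen with earlier results of these data known. The text names all 10 genes, Nnmt, up to 6 called genes of each list by adjusted p, otherwise up to 2 with their values, and nearest profiles among the 3 per gene. Some genes that this rule names are not reported here. Alternatives are given in the closing section. Replicate numbers are shared in both groups by replicates 2 and 3 only, so the numbers were not taken as pairs.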

Additional observations from a re-analysis of the deposited data

How the results depend on the processing

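Slc19a1, Aldh1l2, Psph, Mthfd2 and Psat1 kept direction and call under all 16 alternatives, with log2 fold changes of 0.82 to 1.16, 0.54 to 0.63, 0.42 to 0.59, 0.28 to 0.36 and -0.34 to -0.17. Phgdh was 0.10 and not called with limma-voom on recovered reads and with median of ratios scaling, and 0.10 to 0.15 when 1 library was left out. Mthfd1 ranged from -0.22 to -0.13 with 1 library left out, and the number of the 10 genes lower in NNMT cells then ranged from 1 to 2. The number higher then ranged from 4 to 5. It was 4 with median of ratios scaling and with limma-voom, and 6 under quantile normalization. Shmt2 passed under quantile normalization (0.14). Mthfd1l was -0.003 with median of ratios scaling and with limma-voom. Shmt1 was 0.014 with the replicate block, and -0.055 to 0.021 with 1 library left out. The cause of these moves was not tested.

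The lists were rerun by alternatives chosen after seeing the data. Under quantile normalization and under the replicate block 1 gene of folate transport and retention was lower, and with 1 library left out 0 to 1. Under the block 1 folate-using enzyme was lower in place of 2, since Mthfd2l was -0.15 there and not called (limma adjusted p = 0.0863). With a mean of at least 5 FPKM, 1 gene of glycine and sarcosine breakdown was higher and 1 lower. Under quantile normalization, median of ratios scaling and limma-voom 1 of these genes was lower, and with 1 library left out 0 to 1. Of the genes that move or use serine, 6 were higher without a filter and 6 with a mean of at least 5 FPKM. Under quantile normalization, median of ratios scaling and limma-voom 7 of them were higher, and with 1 library left out 6 to 8. Of the ATF4 genes, 12 were higher with a mean of at least 5 FPKM, which Vldlr and Slc7a11 did not reach. With 1 library left out 15 to 16 of the ATF4 genes were higher. Of the proliferation genes, 18 were lower with median of ratios scaling and with limma-voom, and 16 to 18 with 1 library left out.

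The replicate block, over replicates 2 and 3 of each group, changed no call of the 10 genes. Deviations from the group means correlated at 0.21 and 0.11 for same-numbered libraries, and at 0.21 and -0.23 for crossed ones. Over all tested genes 3910 were higher and 3199 lower with the block, against 3806 and 3334 without it. Each of the 10 genes had 1480 reads or more per library, and the share of counting error in their spread was not tested. Folr1, Folr2, Gldc and Cbs were too low to be tested.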
